A study of Homo sapiens with 52 samples.

Results

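The 6 genes described here are HNRNPA1 and the other members of the hnRNP A/B family of RNA-binding proteins: HNRNPA1L2, HNRNPA1L3, HNRNPA2B1, HNRNPA3 and HNRNPA0. They were taken by gene symbol, as the 6 of 63241 rows of the deposited count table whose Ensembl identifiers carry those names. Counts came from 52 RNA-seq libraries of i3Neurons, neurons induced from the human iPSC line WTC11, grown on inserts whose 1 µm pores let neurites but not cell bodies through. Each culture was separated into a soma fraction and a neurite fraction, so every condition has libraries of both kinds. Untreated neurons that carried no guide RNA gave 4 soma and 4 neurite libraries. A first knockdown experiment had 6 libraries of each fraction with a non-targeting guide and 6 of each with a guide against hnRNPA1, silenced by CRISPR interference (CRISPRi), in which an inactive Cas9 represses transcription at the gene's start. The second experiment had 5 libraries of each fraction with a non-targeting guide and 5 of each with CRISPRi knockdown of TDP43, the product of TARDBP. In all groups the neurons were replated on day 3 after induction and harvested on day 17, and 10 ng of RNA went into each library. The untreated libraries were made with version 2 of the library kit and both knockdown experiments with version 3, so kit and experiment cannot be told apart where these are compared.

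The hnRNP A/B proteins bind RNA through a pair of RNA recognition motifs followed by a glycine-rich tail that drives condensation and holds the signal for nuclear import. They repress the use of many exons, accompany mRNAs out of the nucleus, and in neurons hnRNPA2/B1 and hnRNPA3 take part in carrying mRNAs along dendrites and axons. Mutations in HNRNPA1 and HNRNPA2B1 cause inherited muscle and motor neuron disease, and TDP43 belongs to the same broad group of proteins. HNRNPA1L2 and HNRNPA1L3 are retrocopies of HNRNPA1, that is, copies of its spliced mRNA inserted elsewhere in the genome.

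How far a sequencing read can tell the members apart depends on their sequences. Over the aligned coding sequence, HNRNPA1L2 was 98.4% identical to HNRNPA1, with 15 differing bases, and HNRNPA1L3 was 99.3% identical, with 6. The longest run shared with HNRNPA1 without a difference was 373 bases in HNRNPA1L3 and 174 bases in HNRNPA1L2. HNRNPA3 was 67.4% identical, HNRNPA2B1 62.4% and HNRNPA0 54.9%, with longest shared runs of 20, 17 and 12 bases. Reads from the retrocopies can therefore match HNRNPA1 perfectly over their whole length, whereas reads of 50 bases from the other paralogs' coding sequence cannot. A window of 60 bases, coding bases 589 to 648 of HNRNPA1 in the glycine-rich tail (exon 6 of 10), shows this for the copies (hg38, GENCODE release 29 transcripts). Capitals mark differences from HNRNPA1.
HNRNPA1: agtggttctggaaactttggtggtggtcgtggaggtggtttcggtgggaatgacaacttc
HNRNPA1L3: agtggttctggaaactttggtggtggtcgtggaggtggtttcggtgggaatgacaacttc
HNRNPA1L2: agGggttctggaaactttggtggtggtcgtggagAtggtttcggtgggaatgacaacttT
The windows lie at chr12:54282578-54282637, chr16:51646406-51646465 and chr13:52643081-52643140, in that order and all on the plus strand. HNRNPA1 and HNRNPA1L3 do not differ here, and HNRNPA1L2 differs at 3 bases.

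Fractional counts were more common in some of these rows than in the table as a whole. Over all rows, 81.1% of the values above 0 were whole numbers (within 0.005), but none of HNRNPA1's values was. The share was 2.0% for HNRNPA1L3, 5.9% for HNRNPA3, 39.2% for HNRNPA2B1 and 60.8% for HNRNPA0. HNRNPA1L2 (ENSG00000139675.13, chr13:52642425-52643796, plus strand) had 0 counts in all 51 libraries analysed. Over 602225996 counts in all, a count of 0 allows a level of up to 0.005 CPM, that is, counts scaled to 1000000 per library. A second annotated gene overlaps 118 bases of its exon and had at most 19 counts in a library. How reads that match several genes were assigned is unknown here, so for a copy this close to HNRNPA1 the 0 limits the counts given to the row and not its expression. HNRNPA1L2 therefore entered no test, and 5 of the 6 members were tested.

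Total counts per library were 2541925 to 4346122 in untreated neurites and 5212152 to 10519656 in untreated somata. In the hnRNPA1 experiment neurites had 6257922 to 14977395 and somata 8002038 to 19415973. TDP43 experiment neurites had 6834768 to 14506751 and its somata 15719512 to 28902344. TDP43 knockdown soma replicate 5 held 541 counts and was left out, which leaves 4 libraries in that group. None of 108 pairs of libraries within a group agreed within sampling noise. All 14 neuron markers were at 1 CPM or above in every group of the hnRNPA1 experiment, where POU5F1 and NANOG, which define pluripotent cells, averaged under 0.4 CPM (0.268 to 0.396 and 0.0653 to 0.384). Of the whole list of 10 pluripotency markers, 4 were at 1 CPM or above in each of those groups, and the list summed to 45.2 to 56.3 CPM per library. In untreated neurons 8 of the 10 were at 1 CPM or above in somata and 6 in neurites, with sums of 31.12 to 47.15 CPM. In each TDP43 experiment group 4 were, with sums of 68.92 to 87.28 CPM. TARDBP itself fell on TDP43 knockdown, by 2.50 on the log2 scale in somata and 1.48 in neurites (edgeR adjusted p = 8.9e-21 and 5.9e-16). Whether replicate libraries were grown as separate cultures is not in the labels, and the p-values rest on their spread, whatever its source.

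HNRNPA1 (ENSG00000135486.19, chr12:54280193-54287088, plus strand) was the targeted gene and was lower in every knockdown library than in every control library. Levels are CPM with one scaling over all 51 libraries. In somata the 6 non-targeting libraries ran from 315.1 to 387.7 CPM with a median of 366.7, and the 6 knockdown libraries from 122.8 to 148.1 with a median of 137.2. In neurites the controls ran from 553.5 to 624.4 CPM with a median of 597.2, and the knockdown libraries from 183.2 to 221.8 with a median of 199.1. The ranges are far apart in both fractions, and the lowest control level was above the highest knockdown level. The log2 change was −1.36 ± 0.06 (SE, n = 6 and 6) in somata and −1.55 ± 0.06 in neurites (edgeR quasi-likelihood test with Benjamini-Hochberg adjustment, adjusted p = 6.3e-18 and 1.5e-19). The difference between those changes was −0.19 ± 0.08 (edgeR adjusted p = 0.46). In bulk RNA, fewer cells with the transcript and less transcript per cell cannot be told apart.

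**Figure D1:**
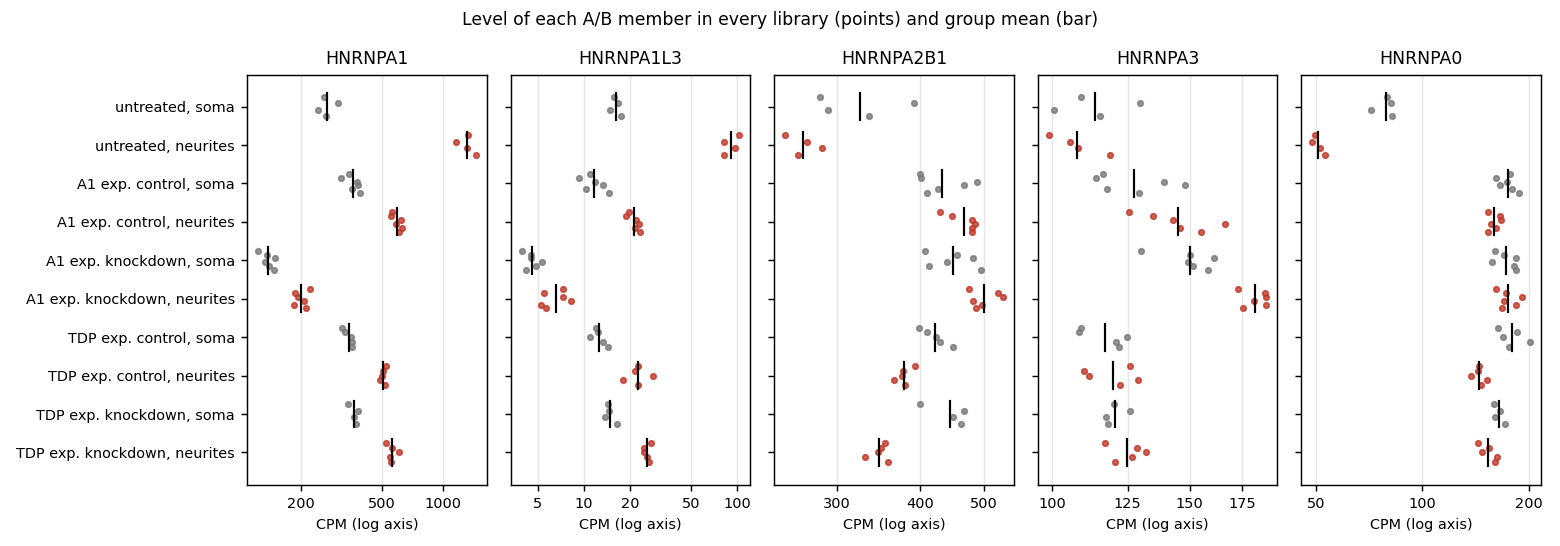
Level of the 5 detected A/B members in every library (points, CPM on a log axis whose range differs between panels) in the 10 groups, with the group mean as a bar. The knockdown libraries of the hnRNPA1 experiment have the lowest HNRNPA1 levels and its knockdown neurites the highest HNRNPA3 levels, 173.0 to 188.1 CPM, while untreated neurites stand at 1157 to 1450 CPM for HNRNPA1.

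HNRNPA1L3 (ENSG00000224578.5, chr16:51553436-51647132, plus strand), the retrocopy with an older pseudogene symbol, HNRNPA1P48, moved with HNRNPA1. Its soma levels were 9.37 to 14.6 CPM (median 11.4) in the 6 controls and 3.94 to 5.35 CPM (median 4.51) in the 6 knockdown libraries. In neurites it went from 18.99 to 23.34 CPM (median 21.79) in controls to 5.25 to 8.27 CPM (median 6.51) on knockdown. Neither fraction's groups overlapped. The log2 change was −1.32 ± 0.11 in somata and −1.68 ± 0.11 in neurites (edgeR adjusted p = 2e-10 and 4.7e-12), close in size to that of HNRNPA1.

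HNRNPA3 (ENSG00000170144.22, chr2:177212563-177223958, plus strand), an A/B protein of mRNA splicing and transport, was the member that rose in both fractions. In somata the 6 controls ran from 113.7 to 148.2 CPM with a median of 123.5, and the 6 knockdown libraries from 130.1 to 161.0 with a median of 150.9. In neurites the controls ran from 125.3 to 166.3 CPM with a median of 144.3, and the knockdown libraries from 173.0 to 188.1 with a median of 184.3. The soma ranges overlap, and in neurites every knockdown library was above every control. Its change on the log2 scale was +0.26 ± 0.06 in somata (1.201-fold, 95% interval 0.14 to 0.39, edgeR adjusted p = 0.0073). In neurites it was +0.34 ± 0.07 (1.26-fold, 95% interval 0.21 to 0.47, edgeR adjusted p = 4e-04). With plain library totals as the scaling, which moves the median of all genes to −0.05 in somata and −0.14 in neurites, the change was +0.20 and +0.19 and the calls were lost (edgeR adjusted p = 0.15 and 0.10).

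HNRNPA2B1 and HNRNPA0 did not show such a rise in somata. HNRNPA2B1 (ENSG00000122566.22, chr7:26173057-26201529, minus strand), which encodes the splice forms A2 and B1 that bind trafficking sequences of dendritic mRNAs, spanned 399.7 to 487.1 CPM (median 418.4) in control and 407.9 to 494.9 CPM (median 447.1) in knockdown somata. In neurites it spanned 429.3 to 484.3 CPM (median 479.1) and 474.1 to 533.5 CPM (median 491.9). The groups overlapped in both fractions. Its log2 change was +0.08 in somata (95% interval −0.04 to 0.20) and +0.11 in neurites (−0.01 to 0.23), with edgeR adjusted p = 0.47 and 0.21. These intervals leave out a rise of the size fitted for HNRNPA3, and they do not show that HNRNPA2B1 stayed the same.

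HNRNPA0 (ENSG00000177733.7, chr5:137745651-137754376, minus strand), an intronless member that binds AU-rich elements of mRNAs, had soma levels of 161.8 to 187.8 CPM (median 175.2) in controls and 156.7 to 184.2 CPM (median 175.5) on knockdown. Its neurite levels were 152.7 to 166.6 CPM (median 158.9) in controls and 161.7 to 191.6 CPM (median 171.3) on knockdown, with some overlap. The log2 change was +0.01 in somata (95% interval −0.08 to 0.11, edgeR adjusted p = 0.91). In neurites it was +0.15 ± 0.05 (0.05 to 0.25, edgeR adjusted p = 0.036). That neurite call was lost under 4 of 10 other settings and in 7 of 24 fits that left out 1 library, with log2 changes from +0.01 to +0.17.

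In total, 1 member was called higher and 2 lower in somata, where 7.09% of the 19812 genes tested were called, 3.79% higher and 3.3% lower. In neurites 2 members were called higher and 2 lower, where 16.2% of all genes were called, 8.96% higher and 7.21% lower. The median log2 change of the tested members was 0.01 in somata and 0.11 in neurites, beside 0.00 over all genes in each fraction. For the difference between fractions edgeR called 0 of 5 members (0.177% of all genes), with 2 members, HNRNPA1 and HNRNPA1L3, at an unadjusted p under 0.05, and DESeq2 and limma-voom also called 0.

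**Figure D2:**
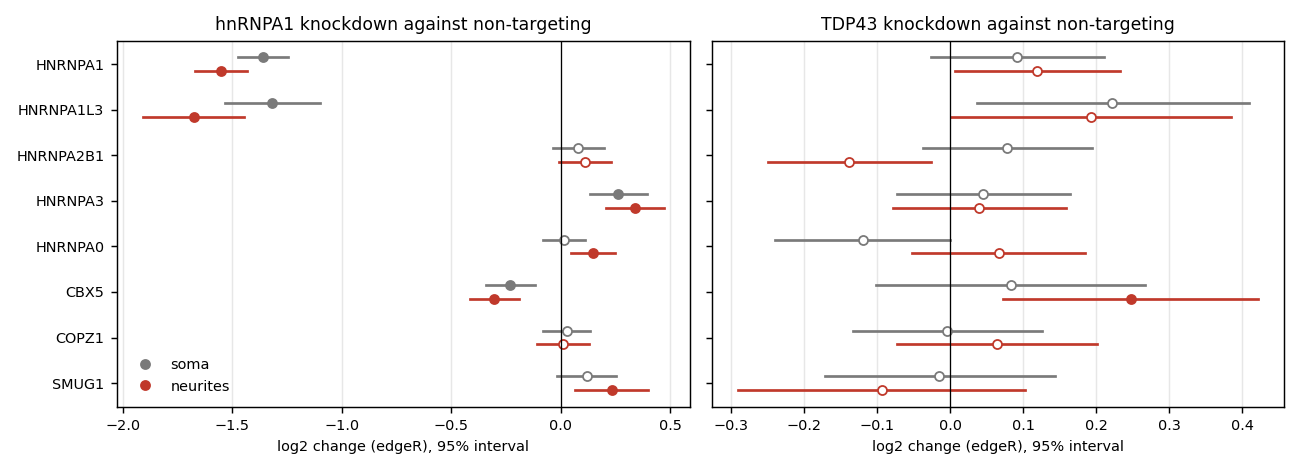
Log2 change on knockdown of hnRNPA1 and of TDP43 in somata and neurites, with 95% intervals. Shown are the 5 tested members and CBX5, COPZ1 and SMUG1, genes near HNRNPA1 on chromosome 12. Filled points passed an adjusted p of 0.05 and open points did not, and the panels' x axes differ in range. HNRNPA1 and HNRNPA1L3 lie between −1.32 and −1.68 on hnRNPA1 knockdown, HNRNPA3 at +0.26 and +0.34, and no member's point is filled for TDP43.

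Set per kilobase of annotated exon, which need not match the transcripts expressed, the loss of HNRNPA1 was much larger than the gain of its paralogs. Mean HNRNPA1 went from 70.7 to 27.0 CPM per kb in somata and from 116.3 to 39.3 in neurites. HNRNPA3 went from 21.1 to 24.9 CPM per kb in somata and from 24.0 to 30.2 in neurites, a gain of 3.77 and 6.16. HNRNPA2B1 was at 46.6 and 48.4 CPM per kb in control and knockdown somata and at 50.4 and 53.9 in neurites. HNRNPA0 was at 19.97 and 19.8 in somata and at 18.25 and 20.02 in neurites. So the order per kb changed: HNRNPA1 had the highest level per kb of the family in both control groups, and HNRNPA2B1 had it in both knockdown groups. In CPM, HNRNPA2B1 was already above HNRNPA1 in control somata (means of 432.1 and 359.9), so the soma order changed per kb alone. In neurites it changed in CPM too, from 592.3 for HNRNPA1 and 466.7 for HNRNPA2B1 to 200.2 and 499.4.

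The 6 members summed to 147.5 to 175.9 CPM per kb in control somata and 110.1 to 131.8 in knockdown somata, a fall of the mean by 25.6%. In neurites the sum was 204.3 to 228.4 in controls and 144.6 to 152.3 on knockdown, a fall of the mean by 33.3%. Neither pair of ranges overlapped. The sum includes HNRNPA1L3, at 6.11 and 2.37 CPM per kb in control and knockdown somata and 11.12 and 3.42 in neurites. Its reads cannot all be told from those of HNRNPA1, so part of the fall may be that of HNRNPA1 counted again. HNRNPA2B1, HNRNPA3 and HNRNPA0 together averaged 87.7 ± 6.0 (SD, n = 6) and 93.1 ± 6.3 CPM per kb in control and knockdown somata, and 92.7 ± 4.7 and 104.1 ± 4.6 in neurites. HNRNPA1's share of the family sum went from 43.0% ± 0.9 to 22.1% ± 0.4 in somata and from 52.8% ± 1.0 to 26.8% ± 2.2 in neurites, while that of HNRNPA3 went from 12.8% to 20.3% and from 10.9% to 20.6%. A fall of HNRNPA1 alone raises the share of every other member, so the shares were not tested.

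Other markers moved in the same libraries. Summed progenitor markers, 10 genes of neural stem cells, were at 246.0 to 280.4 CPM in control and 319.0 to 376.1 in knockdown somata. They were at 467.9 to 578.7 and 579.0 to 725.2 CPM in neurites, so in neither fraction did the groups overlap. NES, an intermediate filament gene, made up most of that sum and rose by 0.48 and 0.40 on the log2 scale (edgeR adjusted p = 1.5e-06 and 1.6e-05). PAX6, a transcription factor of neural stem cells, rose by 1.27 in somata, from 3.70 to 8.94 CPM, and went from 5.07 to 11.5 CPM in neurites (edgeR adjusted p = 1.1e-09 and 4.1e-08). SOX9 fell in somata and SOX1 in neurites, and 8 of the 10 markers were at 1 CPM or above in somata and 9 in neurites. Summed neuron markers, 14 genes, were at 8944 to 10610 CPM in control and 9797 to 12140 in knockdown somata. In neurites they were at 12650 to 15380 and 14460 to 15780 CPM, and the ranges overlapped in both fractions. In somata 2 of the 14 were called, and in neurites 4, beside 7.09% and 16.2% of all genes. The neurite calls were SLC17A7 (+0.77), TUBB3 (+0.40) and NEFM (+0.40), higher, and SLC17A6 (−0.20), lower. Cycling markers summed to 42.0 to 49.1 CPM and 45.6 to 51.1 CPM in control and knockdown somata, and to 63.3 to 73.9 CPM and 65.6 to 81.3 CPM in neurites. The share of counts on 7SL RNA, the RNA of the signal recognition particle, was 3.62 to 8.05% in control and 6.78 to 12.5% in knockdown neurites, and 1.09 to 1.94% and 1.87 to 2.23% in somata. The part of these in the changes of HNRNPA3 and HNRNPA0 was not tested. With 7SL, ribosomal and mitochondrial RNA removed from the counts, the HNRNPA3 calls were kept in both fractions and the neurite call of HNRNPA0 was lost.

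HNRNPA1 lies head to head with CBX5, which encodes the heterochromatin protein HP1 alpha, on chromosome 12. The GENCODE starts are 60 bases apart. The 59 bases between the annotated starts, chr12:54280134-54280192 (hg38, plus strand), are shown because both genes fell. Capitals mark a CCAAT box.
CBX5 to HNRNPA1: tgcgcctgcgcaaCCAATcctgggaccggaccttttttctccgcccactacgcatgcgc
CCAAT or its reverse complement ATTGG was found in 11.3% of windows at the same place in 35116 RefSeq promoters and in 34.6% of their whole 300 bases. Between the RefSeq starts lie 603 bases.

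CBX5 fell in both fractions. In somata the 6 controls ran from 833.6 to 1004 CPM (median 889.4) and the knockdown libraries from 701.7 to 842.1 (median 742.3). In neurites the controls ran from 1008 to 1122 CPM (median 1068) and the knockdown libraries from 797.3 to 934.5 (median 842.8). The neurite ranges did not overlap, and the soma ranges overlapped slightly. The log2 change was −0.23 ± 0.06 in somata and −0.30 ± 0.06 in neurites (edgeR adjusted p = 0.0070 and 0.00022), and each leave-one-library-out fit called it in both. Of the other 3 tested genes within 100 kb, COPZ1, a coat protein of vesicles whose start is 21009 bases away, had changes of 0.03 and 0.01 (adjusted p = 0.83 and 0.93). NFE2, a blood cell transcription factor, was near the detection limit, with 1.75 ± 0.29 CPM in control and 0.66 ± 0.54 CPM in knockdown neurites (−1.50 ± 0.44, edgeR adjusted p = 0.018). SMUG1, a DNA glycosylase, changed by 0.23 ± 0.08 in neurites (edgeR adjusted p = 0.05, just under the threshold), and 20 of 24 fits without 1 library lost that call. NFE2's call was lost in 2 of 24. CBX3, an HP1 gene on another chromosome, had changes of −0.01 and 0.07 (adjusted p = 0.96 and 0.52).

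Rows for processed pseudogenes of HNRNPA1 were lower on knockdown where their sequence is closest to it. The table holds 74 HNRNPA1 pseudogenes beside the 2 retrocopies, and 12 of these 76 rows passed the filter on low counts. Of these, 7 share at least 10% of their 50-base words with HNRNPA1 transcripts, a split chosen after the data were seen. Of those 7, 5 were called lower in somata and 6 in neurites, with median log2 changes of −0.92 and −1.39. HNRNPA1L3, a member described above, is 1 of the 7 and of those called in each fraction. Over all genes, 3.3% were called lower in somata and 7.21% in neurites. Of the 5 that share less, 0 were called by edgeR, DESeq2 or limma-voom in either fraction (0 and 1 at an unadjusted p under 0.05 in somata and neurites), and their medians were 0.18 and 0.05. Reads of a close copy and of HNRNPA1 cannot be told apart where the words are the same. HNRNPA1P7, which shares 69.5% of its words, fell by 1.33 and 1.59 on the log2 scale (edgeR adjusted p = 2.6e-10 and 3.1e-11). HNRNPA1P10, which shares 72.8%, fell by 0.96 and 1.35 (adjusted p = 7.1e-06 and 6.1e-08).

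Near-copy counts were also set against HNRNPA1 counts in the same library. HNRNPA1L3 had 3.25 ± 0.33 counts per 100 HNRNPA1 counts in control and 3.33 ± 0.41 in knockdown somata (SD, n = 6 and 6), and 3.61 ± 0.20 and 3.28 ± 0.54 in neurites. Neither difference passed the test (exact permutation test, two-sided, adjusted p = 0.721 and 0.231 over 4 tests), and the neurite ranges overlapped, 3.43 to 3.88 in controls and 2.7 to 4.02 on knockdown. The summed pseudogenes had 16.8 ± 1.8 counts per 100 HNRNPA1 counts in control and 26.5 ± 3.7 in knockdown somata, with at most 19.8 in a control and at least 21.8 in a knockdown library. In neurites they had 15.5 ± 0.4 and 20.3 ± 1.1, with at most 16.1 and at least 18.4. Both ratios were higher on knockdown in 6 of 6 libraries than in any control (exact permutation p = 0.00216, the smallest 6 against 6 allow, adjusted p = 0.00433). With all 76 near-copy rows added to HNRNPA1, its log2 change was −1.25 in somata and −1.50 in neurites (edgeR adjusted p = 1.5e-16 and 8e-19).

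HNRNPA3 has 16 pseudogene rows in the table, of which 9 were tested, and the called ones were all higher on knockdown. Of the 6 that share at least 10% of their 50-base words with HNRNPA3, 5 were called higher in both fractions, with medians of 1.00 in somata and 0.92 in neurites. Over all genes, 3.79% were called higher in somata and 8.96% in neurites. Of the 3 that share less, 0 were called by edgeR, DESeq2 or limma-voom in either, and their medians were 0.54 in somata and 0.28 in neurites, beside +0.26 and +0.34 for HNRNPA3. At an unadjusted p under 0.05 there were 2 with positive changes in somata, HNRNPA3P11 (+0.54) and HNRNPA3P12 (+0.54), and 1 with a negative change in neurites, HNRNPA3P9 (−0.70); these were named after their values were seen. HNRNPA3P6, which shares 76.6%, ran from 14.2 to 19.9 CPM in control and 19.8 to 24.5 in knockdown somata. In neurites it ran from 17.1 to 19.8 CPM and from 23.5 to 29.8. Its log2 change was +0.49 ± 0.07 and +0.59 ± 0.08 (edgeR adjusted p = 1.3e-05 and 1.8e-06), above the +0.26 and +0.34 of HNRNPA3. HNRNPA3P3, with 21.7% shared, had +0.96 ± 0.14 and +0.99 ± 0.16 from control means of 2.95 and 3.11 CPM. Per 100 HNRNPA3 counts, the summed pseudogenes had 22.4 ± 1.9 counts in control and 29.1 ± 2.3 in knockdown somata, and 22.0 ± 3.3 and 27.0 ± 3.3 in neurites. With the 16 rows added, an alternative chosen after the data were seen, HNRNPA3's change was +0.34 and +0.40 (edgeR adjusted p = 0.00017 and 1.6e-05). No row for a pseudogene named after HNRNPA2B1 or HNRNPA0 was in the table.

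**Figure D3:**
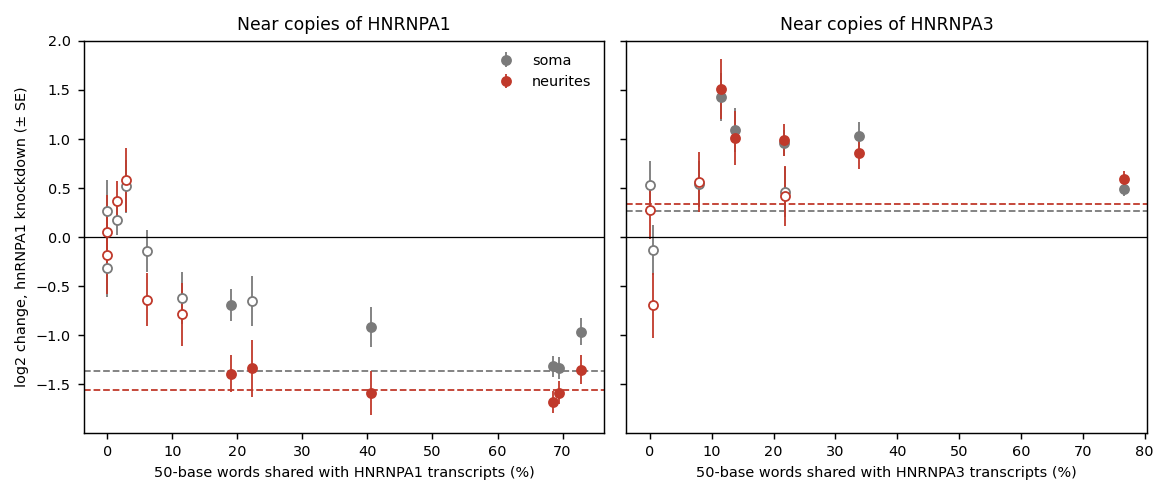
Log2 change on hnRNPA1 knockdown of each tested near copy of HNRNPA1 and HNRNPA3 against the share of its 50-base words found in the parent's transcripts, in somata and neurites. The dashed lines mark the parent's own change; copies of HNRNPA1 with large shares lie near −0.96 to −1.68, and most copies of HNRNPA3 lie above its +0.26 and +0.34.

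Knockdown of TDP43 moved no member past the threshold in the edgeR test. HNRNPA1 was at 316.7, 328.4, 353.2, 355.6 and 357.3 CPM in the 5 non-targeting somata and at 341.2, 363.3, 370.8 and 380.4 in the 4 knockdown somata. In neurites it was at 486.9, 500.7, 507.3, 519.2 and 524.2 CPM in controls and 524.2, 549.0, 550.9, 560.7 and 603.9 on knockdown. The soma groups overlapped and the neurite groups met at 524.2. HNRNPA1 changed by +0.09 (log2) in somata (95% interval −0.03 to 0.21) and +0.12 in neurites (0.01 to 0.23), with edgeR adjusted p = 0.30 and 0.12.

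HNRNPA2B1 in the TDP43 experiment went in different directions by fraction without passing the test. In neurites it was at 365.2, 376.6, 378.0, 380.0 and 393.4 CPM in controls and at 331.2, 346.3, 349.2, 354.1 and 358.4 on knockdown, with no overlap. In somata it was at 398.5, 410.3, 423.2, 429.4 and 449.0 CPM in controls and at 399.7, 449.6, 462.1 and 467.0 on knockdown. The log2 change was −0.14 in neurites (95% interval −0.25 to −0.03, edgeR adjusted p = 0.062) and +0.08 in somata (adjusted p = 0.38), and the difference between them −0.22 ± 0.08 (adjusted p = 0.074).

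HNRNPA3 changed by 0.05 and 0.04 in somata and neurites (edgeR adjusted p = 0.66 in both), from 108.2 to 124.8 CPM in control somata and 109.8 to 128.9 in control neurites. HNRNPA0 had −0.12 and +0.07 (adjusted p = 0.16 and 0.43), and HNRNPA1L3 +0.22 and +0.19 (adjusted p = 0.089 and 0.14). The counts of 0 stand beside 18.9% of all genes called in somata, 24.8% in neurites and 10.5% for the difference between fractions. At an unadjusted p under 0.05 there were 2, 3 and 2 members. In somata DESeq2 and limma-voom also called 0. In neurites DESeq2 called 2 and limma-voom 1, and for the difference each called 1.

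The test of the hnRNPA1 knockdown effect against that of TDP43 was called for 2 members in somata, where 12.7% of all genes were called. These were HNRNPA1 (−1.46 ± 0.08) and HNRNPA1L3 (−1.55 ± 0.15), with edgeR adjusted p = 1.1e-19 and 8.9e-12. In neurites, where 16.8% of all genes were called, 4 members were. HNRNPA1 and HNRNPA1L3 differed by −1.69 ± 0.08 and −1.88 ± 0.15 (adjusted p = 5.6e-22 and 1.1e-13), HNRNPA2B1 by +0.23 ± 0.08 (adjusted p = 0.032) and HNRNPA3 by +0.28 ± 0.09 (adjusted p = 0.021). So the HNRNPA3 effect differed between knockdowns in neurites. In somata that difference was +0.21 ± 0.09 and was not called (adjusted p = 0.11). The neurite calls of HNRNPA2B1 and HNRNPA3 were lost in several other fits, including that with plain library totals, where 2 members were called.

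HNRNPA1 RNA was higher in neurites than in somata in all 5 conditions with the TMM scaling, by very different amounts; with plain library totals the ratio stayed positive in all 5 and was called in 2. In untreated neurons it was at 241.0, 259.5, 263.3 and 302.2 CPM in somata and at 1157, 1310, 1332 and 1450 CPM in neurites. Every neurite library was above every soma library. The log2 ratio of neurites to somata, from a scaling within that fit, was 2.56 ± 0.12 (5.88-fold, n = 4 and 4, edgeR adjusted p = 5.6e-14). It was 0.71 ± 0.06 and 0.52 ± 0.06 in the non-targeting and knockdown neurons of the hnRNPA1 experiment, and 0.64 ± 0.06 and 0.66 ± 0.06 in those of the TDP43 experiment (edgeR adjusted p from 1.7e-12 to 8.6e-09). HNRNPA1L3 was also higher in neurites in all 5, by 2.75 in untreated neurons (82.2, 82.67, 97.15 and 103.7 CPM against 14.85, 15.79, 16.71 and 17.51) and by 0.50 to 0.89 elsewhere. A list of 8 nuclear RNAs was also counted in neurites. Its median sum was 2110 CPM in neurites and 3079 in somata of untreated neurons. It was 2390 and 2720 in hnRNPA1 controls, 2346 and 3067 on hnRNPA1 knockdown. In the TDP43 experiment it was 2752 and 3237 in controls, 2228 and 3493 on knockdown. Its genes differed. On hnRNPA1 knockdown MALAT1 was higher in neurites (+0.54, edgeR adjusted p = 4e-05), while MEG3 (−3.27), MIAT (−0.61) and SNHG14 (−0.64) were called lower. In hnRNPA1 controls MALAT1 (+0.07) and NEAT1 (+0.01) were not called (edgeR adjusted p = 0.56 and 0.96). There MEG3 (−2.09), MIAT (−0.75) and SNHG14 (−0.24) were called lower. How much RNA of cell bodies the neurite fractions held was not tested.

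The other paralogs showed smaller and mixed neurite to soma ratios. HNRNPA3 was called higher in neurites in both groups of the hnRNPA1 experiment, with 0.18 ± 0.06 in controls and 0.25 ± 0.06 on knockdown (edgeR adjusted p = 0.022 and 0.0022). It had 0.10 to 0.18 in the other 3 conditions, not called. In untreated neurons the sign depended on the scaling. With one scaling over all libraries, mean HNRNPA3 there was 107.8 CPM in neurites and 113.5 in somata, with overlap. Its ratio was not called different between knockdown and control in either experiment (+0.08 for hnRNPA1 and −0.01 for TDP43, edgeR adjusted p = 0.86 and 0.98), nor between untreated neurons and the controls (−0.27 and −0.12, adjusted p = 0.079 and 0.49). The comparison with untreated neurons used a joint fit with its own scaling, so its values are not differences of the ratios given here. HNRNPA0 was lower in neurites in untreated neurons (−0.39 ± 0.10, adjusted p = 0.0021) and in both non-targeting groups (−0.14 ± 0.05 and −0.24 ± 0.06, adjusted p = 0.013 and 0.00096). In the knockdown groups it had −0.01 and −0.05 (adjusted p = 0.89 and 0.48). HNRNPA2B1 was lower in neurites of TDP43 knockdown neurons (−0.31 ± 0.06, edgeR adjusted p = 4.3e-05) and had ratios from −0.09 to 0.13 in the other conditions, none called.

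Between 3 and 4 of the 5 tested members were called in each condition, and large shares of all genes were too. These were 56.5% in untreated neurons, 48.4% and 35.8% in non-targeting and knockdown neurons of the hnRNPA1 experiment, and 46.5% and 57.7% in those of the TDP43 experiment. The all-gene median ratio was −0.21 in untreated neurons and −0.05 to −0.02 in the others. With plain library totals it moved to −1.43 in untreated neurons and to between −0.63 and −0.40 in the others, and there HNRNPA3 had negative ratios in all 5 conditions. HNRNPA1 then passed the test in untreated neurons (1.31) and hnRNPA1 controls (0.35). It had 0.07, 0.02 and 0.12 in hnRNPA1 knockdown, TDP43 control and TDP43 knockdown neurons (edgeR adjusted p = 0.30, 0.90 and 0.47). The share of counts on 7SL RNA was 11.35 to 29.78% in TDP43 control and 3.607 to 21.02% in TDP43 knockdown neurites. In their somata it was 0.986 to 1.728% and 1.209 to 1.748%. Untreated neurites had 0.5668 to 1.208% and untreated somata 0.2274 to 0.4509%. The part of 7SL RNA in the ratios with plain library totals was not tested.

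**Figure D4:**
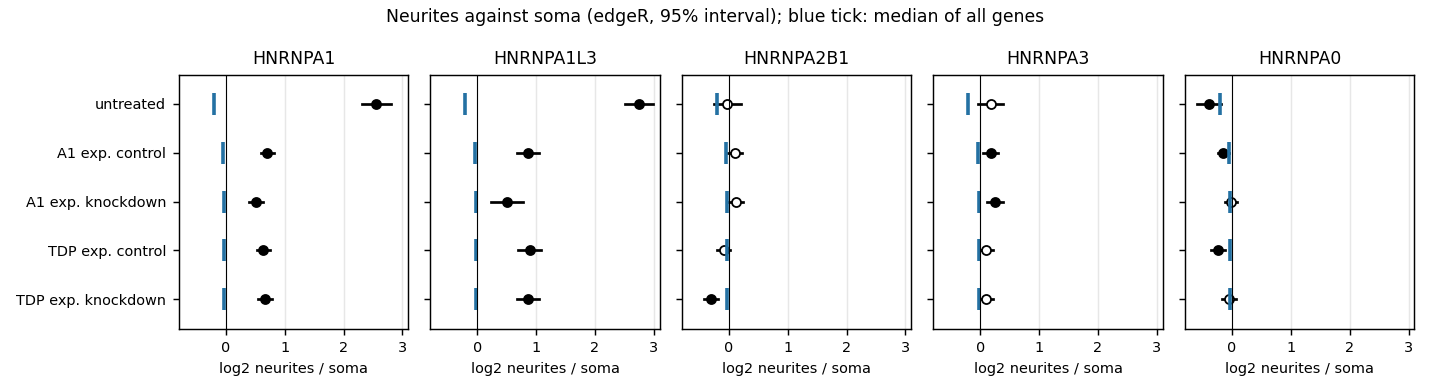
Log2 ratio of neurites to somata for the 5 tested members in the 5 conditions, with 95% intervals; filled points passed an adjusted p of 0.05, and the blue tick is the median of all genes. HNRNPA1 and HNRNPA1L3 lie at 2.56 and 2.75 in untreated neurons and between 0.50 and 0.89 in the other conditions, while HNRNPA2B1, HNRNPA3 and HNRNPA0 lie between −0.39 and 0.25.

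Untreated and non-targeting neurons were compared in a joint fit with its own scaling. Its differences are therefore not those between the separately fitted ratios above. Fitted separately, untreated and hnRNPA1 control neurons had 2.56 and 0.71 for HNRNPA1, −0.03 and 0.10 for HNRNPA2B1, and −0.39 and −0.14 for HNRNPA0. In the joint fit the untreated ratio of HNRNPA1 exceeded that of hnRNPA1 experiment controls by 1.58 ± 0.11 (edgeR adjusted p = 3.2e-16). It exceeded that of TDP43 experiment controls by 1.73 ± 0.11 (edgeR adjusted p = 1e-16). For HNRNPA1L3 the excess was 1.62 ± 0.15 and 1.67 ± 0.16. The all-gene medians of these differences were −0.41 and −0.49, and 37.1% and 37.5% of all genes were called, beside 4 and 3 of the 5 tested members. HNRNPA0 had −0.51 ± 0.10 and −0.34 ± 0.10 (adjusted p = 6.7e-05 and 0.0094), and HNRNPA2B1 −0.39 ± 0.11 and −0.13 ± 0.11 (adjusted p = 0.0039 and 0.40). Against the all-gene median, the excess of HNRNPA1 was 1.99 and 2.22, and HNRNPA0 had differences of −0.10 and 0.15, a turned sign. HNRNPA2B1 had 0.02 and 0.36 against it, so its called fall beside the hnRNPA1 controls was the size of the all-gene shift. Library kit and experiment cannot be told apart in this comparison.

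Over all 10 groups, mean HNRNPA1 was highest in untreated neurites (1312 ± 120 CPM), clear of the next group. There followed hnRNPA1 control neurites (592.3 ± 31.3), TDP43 knockdown neurites (557.7 ± 29.1) and TDP43 control neurites (507.7 ± 14.9), which overlapped one another in turn. Then came TDP43 knockdown somata (363.9 ± 16.7), hnRNPA1 control somata (359.9 ± 27.9) and TDP43 control somata (342.3 ± 18.5), which also overlapped. Below them, without overlap, came untreated somata (266.5 ± 25.7), hnRNPA1 knockdown neurites (200.2 ± 15.3) and hnRNPA1 knockdown somata (137.5 ± 9.5). HNRNPA1L3 also had its highest mean in untreated neurites (91.4 ± 10.7 CPM) and its lowest in hnRNPA1 knockdown somata (4.56 ± 0.50), which overlapped hnRNPA1 knockdown neurites (6.57 ± 1.2).

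HNRNPA2B1 ran from 499.4 ± 24.2 CPM in hnRNPA1 knockdown neurites down to 267.2 ± 14.5 in untreated neurites, the opposite end from HNRNPA1. Its first 6 groups in that order overlapped in turn down to TDP43 control somata (422.1 ± 19.2), and TDP43 control neurites (378.6 ± 10.0) lay below them without overlap. HNRNPA3 had its highest level in hnRNPA1 knockdown neurites (182.2 ± 6.7 CPM), above the next group without overlap, and its other 9 groups overlapped in turn from 150.1 ± 10.9 to 107.8 ± 8.2. HNRNPA0 was lowest in untreated neurites (50.7 ± 1.8 CPM) and next lowest in untreated somata (78.7 ± 4.9), both clear of their neighbours. Its other 8 groups overlapped in turn between 144.6 ± 5.4 and 178.8 ± 14.7.

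Related genes are given here by their counts, which are to be read against the 7.09% of all genes called in somata and 16.2% in neurites; no list was compared with other genes. Of 26 other hnRNP genes tested, 0 were called higher and 1 lower in somata, PTBP2, the neuronal polypyrimidine tract protein (−0.16 ± 0.05, edgeR adjusted p = 0.047). In neurites 3 were called higher and 1 lower. HNRNPF, which binds G-rich RNA, rose by 0.25 (adjusted p = 0.0019), RALY by 0.28 (0.00053) and PCBP1, a poly(C)-binding protein, by 0.28 (0.024), while RALYL fell by 0.20 (0.039). The list's medians were −0.00 and −0.01, beside 0.00 over all genes in each fraction. Of 14 SR proteins, splicing factors that often oppose hnRNP A1, 1 fell in somata, SRSF2 (−0.23, adjusted p = 0.03), and 1 rose in neurites, SRSF4 (+0.20, adjusted p = 0.034), with medians of −0.06 and −0.02.

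Of 4 relatives with similar RNA recognition motifs, MSI2, a Musashi protein, rose in neurites (+0.17, edgeR adjusted p = 0.043) and 0 were called in somata by edgeR, DESeq2 or limma-voom (1 at an unadjusted p under 0.05). DESeq2 and limma-voom did not call MSI2. Of 13 genes for the import and modification of A/B proteins, PRMT5, an arginine methyltransferase, fell in somata (−0.22, adjusted p = 0.023). In neurites TNPO1, the import receptor transportin, fell by 0.16 (adjusted p = 0.038), and the kinases MKNK2 and MKNK1, which phosphorylate hnRNP A1, rose by 0.43 and 0.20 (adjusted p = 0.0006 and 0.044). The levels of 11 genes whose splicing the A/B proteins are known to regulate gave 0 calls by edgeR, DESeq2 or limma-voom in both fractions (1 in somata and 2 in neurites at an unadjusted p under 0.05), with medians of 0.01 and 0.11. Gene counts do not show exon use. Of 8 nuclear RNAs, SNHG14 rose (+0.35) and MALAT1 fell (−0.30) in somata, with adjusted p = 0.0036 and 0.049, and NEAT1, the scaffold of paraspeckles, rose in neurites (+0.35, edgeR adjusted p = 0.023).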

How the data were processed

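The authors aligned reads with STAR 2.7.11b to hg38 and counted them with featureCounts of Subread 2.0.6, per the submitters' processing notes. The annotation release, strand setting and treatment of reads with several matches were not given in the sources used here. The deposited values are estimated counts per gene (expected counts) that need not be whole, and were rounded before testing. The members and gene lists were chosen with earlier results of these data known. Each experiment was fitted with edgeR 4.0.16 (R 4.3.3; TMM scaling, filterByExpr, quasi-likelihood test, Benjamini-Hochberg adjustment over all genes, threshold 0.05); contrasts between experiments used joint fits. limma 3.58.1 (voom) and DESeq2 1.42.0 were alternatives, beside other scalings, no filter, leaving out each library, and a replicate block. The fit of the hnRNPA1 experiment was tested on simulated data for the knockdown change in somata alone. Levels are TMM-scaled CPM, also per kb of the union of GENCODE 29 exons. Coding sequences were aligned with MAFFT 7.526, near copies with BLAST 2.17.0. The labels give groups the same replicate numbers. Correlations of same-numbered libraries' deviations were compared with 0.1. They were over it in every pair only for TDP43 knockdown soma with neurite (4 of 4) and TDP43 soma control with knockdown (3 of 3). The rule took pairing from the numbers for those alone. The edgeR tests given above used no pairing in any comparison, these included, and the replicate block was an alternative fit. A weaker correlation does not show that same-numbered libraries are unpaired. Permutation tests over libraries used SciPy 1.17.1. Genes named are the members, their near copies, neighbours within 100 kb, and called genes of the lists. Promoter windows are from RefSeq. Libraries under 100000 counts were left out. A further sequence window is not reported here.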

Additional observations from a re-analysis of the deposited data

Results flagged for a closer look

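Effects set against each other between experiments differed for 13 values. Those on knockdown compare different targets, and HNRNPA1 was itself the target of the first. The hnRNPA1 knockdown effect differed from that of TDP43 knockdown in somata for HNRNPA1 (−1.458 on the log2 scale) and HNRNPA1L3 (−1.545). In neurites it differed for HNRNPA1 (−1.686), HNRNPA1L3 (−1.883), HNRNPA2B1 (+0.233) and HNRNPA3 (+0.283). HNRNPA2B1 had no called change in either knockdown alone, and its difference in neurites joins a value of +0.11 on hnRNPA1 knockdown to one of −0.14 on TDP43 knockdown.

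Ratios of untreated neurons were compared with the controls in the joint fit, not between separate fits. The neurite to soma ratio of untreated neurons differed from that of hnRNPA1 experiment controls for HNRNPA1 (+1.583), HNRNPA1L3 (+1.619), HNRNPA2B1 (−0.394) and HNRNPA0 (−0.508). Against TDP43 experiment controls it differed for HNRNPA1 (+1.731), HNRNPA1L3 (+1.669) and HNRNPA0 (−0.335). The all-gene medians of these differences were −0.41 and −0.485. Against them HNRNPA2B1 had +0.016 beside hnRNPA1 controls, and HNRNPA0 had −0.098 and +0.150, a turned sign. Library kit and experiment cannot be told apart here. No library stood apart within a group in the 50 sets of a member and a group, where chance flags about 1 in 20.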

How the results depend on the processing

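Of 2837 gene and ratio values under alternatives, over 103 results, 2737 kept their direction and side of the threshold, 70 fell short of it, 23 newly passed and 7 turned direction. The 7 were neurite to soma ratios with plain library totals. HNRNPA3 then had −1.064 in untreated neurons, −0.174 and −0.186 in controls and knockdown of the hnRNPA1 experiment, and −0.504 and −0.445 in those of the TDP43 experiment; HNRNPA2B1 had −0.258 and −0.31 in the hnRNPA1 experiment. With that scaling the members called were 2 in place of 4 for hnRNPA1 knockdown in neurites, 5 in place of 3 for untreated neurites against somata, 2 in place of 4 for the hnRNPA1 against TDP43 effect in neurites, and 5 in place of 3 for the untreated ratio against TDP43 controls. HNRNPA3 had +0.204 and +0.191 and HNRNPA0 in neurites +0.007. The neurite change of HNRNPA0 missed the threshold with DESeq2 size factors (+0.129), without the filter (+0.104) and without 7SL, ribosomal and mitochondrial RNA (+0.128), and was +0.118 to +0.169 with 1 library left out. Without the filter, 2 members were called for the hnRNPA1 against TDP43 effect in neurites, and 2 to 4 with 1 library left out. For TDP43 knockdown, leaving out 1 library gave 0 to 1 called members in somata, in neurites and for their difference; DESeq2 gave 2 in neurites and 1 for the difference, and limma-voom 1 and 1. The cause was not tested. With the replicate block the members called were 3 in somata and 4 in neurites for hnRNPA1 knockdown and 0 in each TDP43 comparison, as without it, and it changed no other count of members. HNRNPA3 with the block had +0.266 and +0.344. The genes called over all were 1608 and 3559 with the block and 1404 and 3203 without it. In the hnRNPA1 experiment, correlations over 0.1 between same-numbered control and knockdown libraries held in 3 of 6 soma pairs and 2 of 6 neurite pairs. That does not settle whether the numbers pair these libraries. Untreated neurites were the shallowest libraries (2541925 to 4346122 counts), which limits rare near copies most; the limit for HNRNPA1L2 covers counting error only.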

Other observations

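Over the 10 group means, and among 9885 genes with a mean of at least 10 CPM, the profiles most like that of HNRNPA1 belonged to NNT (Pearson r = 0.969), HNRNPA1L3 (0.965), SLC39A10 (0.964), HNRNPA1P10 (0.960) and RMST (0.937). NNT is a mitochondrial transhydrogenase, SLC39A10 a zinc importer and RMST a long noncoding RNA. For HNRNPA1L3 they were SLC30A6 (0.983), NNT (0.981) and TBCK (0.966). HNRNPA2B1 was most like ANP32A (0.983), CCDC12 (0.978) and AGGF1 (0.971). HNRNPA3 was most like SNRNP27 (0.958), FAM43A (0.948) and CCDC50 (0.940), and HNRNPA0 like MAEA and MAP2K7 (0.999 each). The 10 points share library scaling, and untreated neurites lie far from the others for HNRNPA1 and HNRNPA0.

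The summed HNRNPA1 pseudogenes had 31.4 ± 6.2 counts per 100 HNRNPA1 counts in untreated somata and 14.3 ± 2.1 in untreated neurites (SD, n = 4 and 4), beside means of 15.5 to 18.3 in the 4 non-targeting groups. HNRNPA1L3 had 6.11 ± 0.46 and 7.00 ± 0.91 in untreated somata and neurites, beside 3.25 to 4.46 in those groups.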
